A study of Saccharomyces cerevisiae with 24 samples.

Results

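The 32 genes described here encode subunits of the 26S proteasome of budding yeast (Saccharomyces cerevisiae). They were chosen by systematic name and not by a measured value, but with earlier results of these data known. All 32 were present among the 6663 transcripts and 6696 genes of the deposited tables. The alpha ring of the core particle is given by 7 genes: SCL1 (YGL011C), PRE8 (YML092C), PRE9 (YGR135W), PRE6 (YOL038W), PUP2 (YGR253C), PRE5 (YMR314W) and PRE10 (YOR362C). Its beta ring is given by another 7: PRE3 (YJL001W), PUP1 (YOR157C), PUP3 (YER094C), PRE1 (YER012W), PRE2 (YPR103W), PRE7 (YBL041W) and PRE4 (YFR050C). The 6 ATPases of the regulatory base are RPT1 (YKL145W), RPT2 (YDL007W), RPT3 (YDR394W), RPT4 (YOR259C), RPT5 (YOR117W) and RPT6 (YGL048C). The 4 other base genes are RPN1 (YHR027C), RPN2 (YIL075C), RPN10 (YHR200W), here counted with the base although it sits between base and lid, and RPN13 (YLR421C). The lid is represented by 8 genes, RPN3 (YER021W), RPN5 (YDL147W), RPN6 (YDL097C), RPN7 (YPR108W), RPN8 (YOR261C), RPN9 (YDR427W), RPN11 (YFR004W) and RPN12 (YFR052W). SEM1, the small further lid subunit, is not among the 32 and is given with the accessory genes.

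The proteasome degrades ubiquitin-tagged proteins. Its core is a barrel of stacked alpha and beta rings, with the proteolytic sites on PRE3, PUP1 and PRE2, and the regulatory particle recognises, deubiquitinates, unfolds and feeds substrates into it, with the ATPase ring as the unfolding motor and RPN11 as the deubiquitinating enzyme. The subunits are made in the cytosol, and in yeast the transcription factor Rpn4, itself a short-lived proteasome substrate, raises transcription of most of their genes. Hel2 is a ubiquitin ligase that binds collided ribosomes, so footprints recovered with Hel2 report ribosomes with which it was associated.

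Ribosome footprints were measured in 24 libraries, in 12 groups of 2 replicates. Every strain was MATa ade2 his3 leu2 trp1 ura3 can1 and carried HEL2-FTP::natNT2, a tagged Hel2, so there was no strain without the tag among these libraries. HEL2-FTP had no further change. In both other strains the chromosomal SRP72 gene, which encodes a subunit of the signal recognition particle, was replaced (srp72::HISMX6) and SRP72-V5 was supplied on a plasmid, pRS415-SRP72p-SRP72-V5 under the SRP72 promoter (label SRP72p) or pRS415-GIT1p-SRP72-V5 under the GIT1 promoter (label GIT1p). Cells grew in YPD medium at 30 °C. Each strain was split into cytosolic and membrane fractions, and total footprints (input) and footprints immunoprecipitated with Hel2 (IP) were sequenced from both. The protocol mentions that the membrane fraction was or was not solubilised with 1% Triton X-100, without saying in which libraries. The labels do not say whether replicates came from separate cultures, so p-values measure only the spread between these libraries, which may be technical.

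Some libraries departed from their labels or from each other. Among the inputs SRP72 was at 120 to 145 CPM (counts scaled to a library total of 1000000) under the label SRP72p and at 326 to 382 CPM under GIT1p. LEU2, the marker carried by the pRS415 plasmid, was at 1671 to 2030 CPM in inputs labelled GIT1p but at 33.9 to 127 CPM under SRP72p, whereas HIS3 was at 391 to 572 CPM with the label SRP72p and 16.6 to 28.7 CPM with GIT1p. The genotype given for both labels is the same apart from the promoter and includes trp1, and TRP1 was at 66.8 to 83.6 CPM with the label SRP72p and 1.57 to 6.78 CPM with GIT1p. LEU2 and TRP1 go against the label SRP72p, and HIS3 differs between labels whose given genotype has the same markers. Comparisons of the libraries labelled SRP72p and GIT1p are comparisons of libraries so labelled. The summed level of the 5 membrane markers (SEC61, STT3, OST1, WBP1 and PMT1, all listed above 0 in every library) was 87.1 to 103 RPM (the same scaling of reads, as deposited) in HEL2-FTP cytosolic inputs and 1339 to 1391 RPM in membrane inputs. In the inputs labelled GIT1p it was 196 to 197 CPM in the cytosol and 1158 to 1195 CPM at the membrane. In the IPs of this label it was 846 to 957 CPM in the cytosol and 819 to 885 CPM at the membrane. The membrane markers thus separated the fractions labelled GIT1p in the inputs but not after IP. In the IPs labelled SRP72p the sum was 548 to 571 CPM in the cytosol and 937 to 994 CPM at the membrane. Glycolytic mRNAs (PGK1, ENO2, TDH3, FBA1 and CDC19) remained abundant in membrane inputs, at 104300 to 105000 RPM summed in HEL2-FTP against 110400 to 110600 RPM in cytosolic inputs. The pair of membrane inputs labelled SRP72p differed most between replicates. Its chi-square over its degrees of freedom was 78.3, where the other count groups had 2.13 to 17.6. Counts of members called in a single comparison that rests on this pair are given with and without its libraries. Counts over all 6 IP/input comparisons and counts of accessory genes are given only with both.

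Taken per length, the alpha and beta ring genes had higher median footprint levels in the inputs than each group of regulatory genes. Level per length is given as RPM per 100 codons for HEL2-FTP and as CPM per kilobase for the count libraries, both as the mean of 2 replicates. In HEL2-FTP cytosolic input the median level was 71.9 RPM per 100 codons over the alpha ring genes and 74.6 RPM per 100 codons over the beta ring genes. The 6 ATPase genes had a median of 43.2 RPM per 100 codons, the 8 lid genes 44.8 and the 4 other base genes 33.9. Single genes overlapped, with PUP1 of the beta ring at 59.1 and RPN12 of the lid at 60.7, and the difference was not tested. Across all 32 genes the level per length ran from 32 RPM per 100 codons for RPN13, a ubiquitin receptor, to 93.4 for PRE5, a 2.92-fold range. PRE5 was also the highest in every other input group, at 288 CPM per kilobase in cytosolic input labelled GIT1p and 317 CPM per kilobase in that labelled SRP72p, and the range over the 32 genes was 2.56-fold to 3.30-fold across the 6 input groups.

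**Figure D1:**
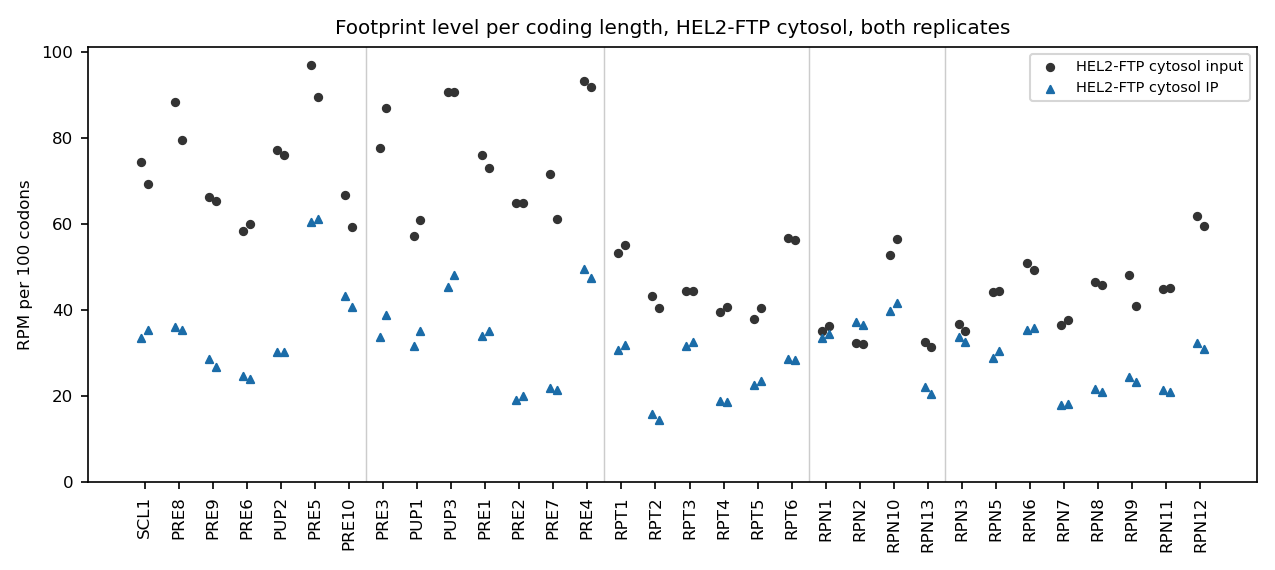
Footprint level per coding length (RPM per 100 codons) of each of the 32 genes in both replicates of HEL2-FTP cytosolic input (dark circles) and cytosolic IP (blue triangles), with grey lines between alpha ring, beta ring, base ATPase, other base and lid genes. Input levels of the alpha and beta ring genes lie mostly above those of the base and lid genes, and RPN2 alone has both IP points above both input points.

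In the Hel2 IP libraries the subunit genes took a smaller share of coding footprints than in the inputs. In HEL2-FTP the 32 genes together held 0.619% and 0.610% of coding footprints in the 2 cytosolic inputs and 0.359% and 0.360% in the 2 cytosolic IPs. At the membrane the shares were 0.550% and 0.553% in input and 0.296% and 0.308% in IP. In libraries labelled SRP72p they were 0.567% and 0.573% in cytosolic input, 0.338% and 0.35% in cytosolic IP, 0.461% and 0.545% in membrane input, and 0.272% and 0.277% in membrane IP. For the label GIT1p the cytosolic inputs held 0.545% and 0.555% and the cytosolic IPs 0.290% and 0.263%, while the membrane inputs held 0.486% and 0.480% and the membrane IPs 0.208% and 0.215%. Input and IP did not overlap in any strain and fraction. The 5 glycolytic markers named above also took less of the IPs, with sums of 62850 and 64860 RPM in HEL2-FTP cytosolic IP against 110400 and 110600 RPM in input. In comparisons of inputs, whether fewer footprints reflect less mRNA, fewer ribosomes per mRNA or a smaller part of the cells cannot be told apart. The IP/input ratio sets footprints recovered with Hel2 against total footprints of the same strain and fraction. It is relative to all other footprints of the library.

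**Figure D2:**
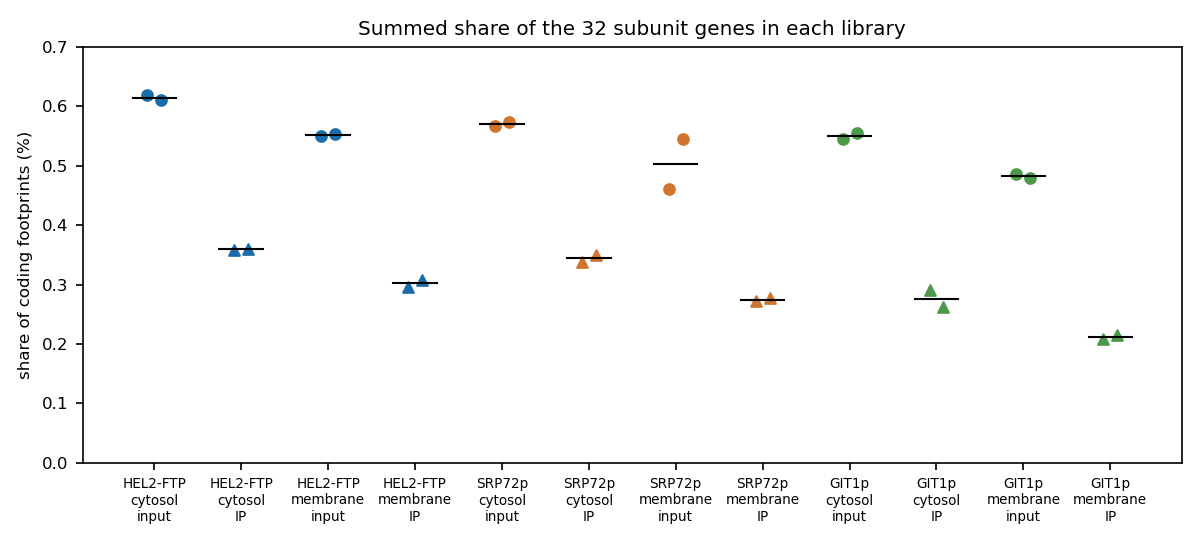
Summed share of coding footprints (%) of the 32 subunit genes in each of the 24 libraries, with circles for input, triangles for IP and a black bar for the mean of 2 replicates; blue is HEL2-FTP, orange the label SRP72p and green the label GIT1p. Inputs lie between 0.461% and 0.619% and IPs between 0.208% and 0.360%.

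Gene by gene, 29 of the 32 fell in the cytosolic HEL2-FTP IP, 1 rose (RPN2) and 2 did not pass the test (RPN1 and RPN3). Over all 5532 genes tested, 89.2% were called in this comparison and 35.6% were called lower (48.1% lower when each library was centred on its median gene). A call here and below is a Benjamini-Hochberg adjusted p under 0.05 over all genes tested, by limma for HEL2-FTP and by edgeR's quasi-likelihood test for the count libraries. The median log2 difference of the 32 genes was -0.95, and that of all genes was 0.34. This puts the subunit genes 1.28 below the median of all genes on the log2 scale. Centring shifts all genes of a library alike, so it is no test of this distance. The largest fall was that of PRE2, the chymotrypsin-like beta subunit, from 187 and 186 RPM in input to 54.5 and 57.4 RPM in IP, a log2 difference of -1.73 (SE 0.062, adjusted p = 6.52e-11). PRE7, a non-catalytic beta subunit, went from 173 and 148 RPM to 52.7 and 51.6 RPM, with a log2 difference of -1.60 (SE 0.070). All 14 core genes fell, with a median log2 difference of -1.14, from -1.73 for PRE2 to -0.58 for PRE10, while the 18 regulatory genes had a median of -0.78.

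All 6 ATPase genes fell in the cytosolic HEL2-FTP IP, by unequal amounts. RPT2, whose product helps open the gate of the core, was at 189 and 177 RPM in input and 68.9 and 62.4 RPM in IP (log2 difference -1.47, SE 0.071, adjusted p = 9.1e-10). RPT3 fell least, from 190 and 191 RPM to 135 and 139 RPM (log2 difference -0.47, SE 0.054, adjusted p = 3.61e-06). Input and IP did not overlap for either gene. The log2 differences of the other ATPase genes were -0.79 for RPT1, -1.11 for RPT4, -0.76 for RPT5 and -0.99 for RPT6.

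At the membrane all 32 genes fell in the HEL2-FTP IP, where 88.4% of all genes tested were called and 43.0% were called lower (52.0% after centring on library medians). Their median log2 difference was -1.06, and it was 1.08 below the median of all genes, a distance that centring cannot change. PRE2 again fell most, from 157 and 176 RPM to 54.0 and 58.0 RPM (log2 difference -1.56, SE 0.062), followed by PRE7 at -1.53 and by RPN8, the partner of RPN11 in the lid, at -1.45. RPN8 was at 135 and 139 RPM in membrane input and 49.0 and 50.7 RPM in membrane IP. Among ATPase genes the log2 differences were -0.75 for RPT1, -1.41 for RPT2, -0.66 for RPT3, -1.12 for RPT4, -0.82 for RPT5 and -1.12 for RPT6. No member was called higher, and RPN10, a ubiquitin receptor, fell least with a log2 difference of -0.25 (SE 0.062, adjusted p = 0.00227).

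**Figure D3:**
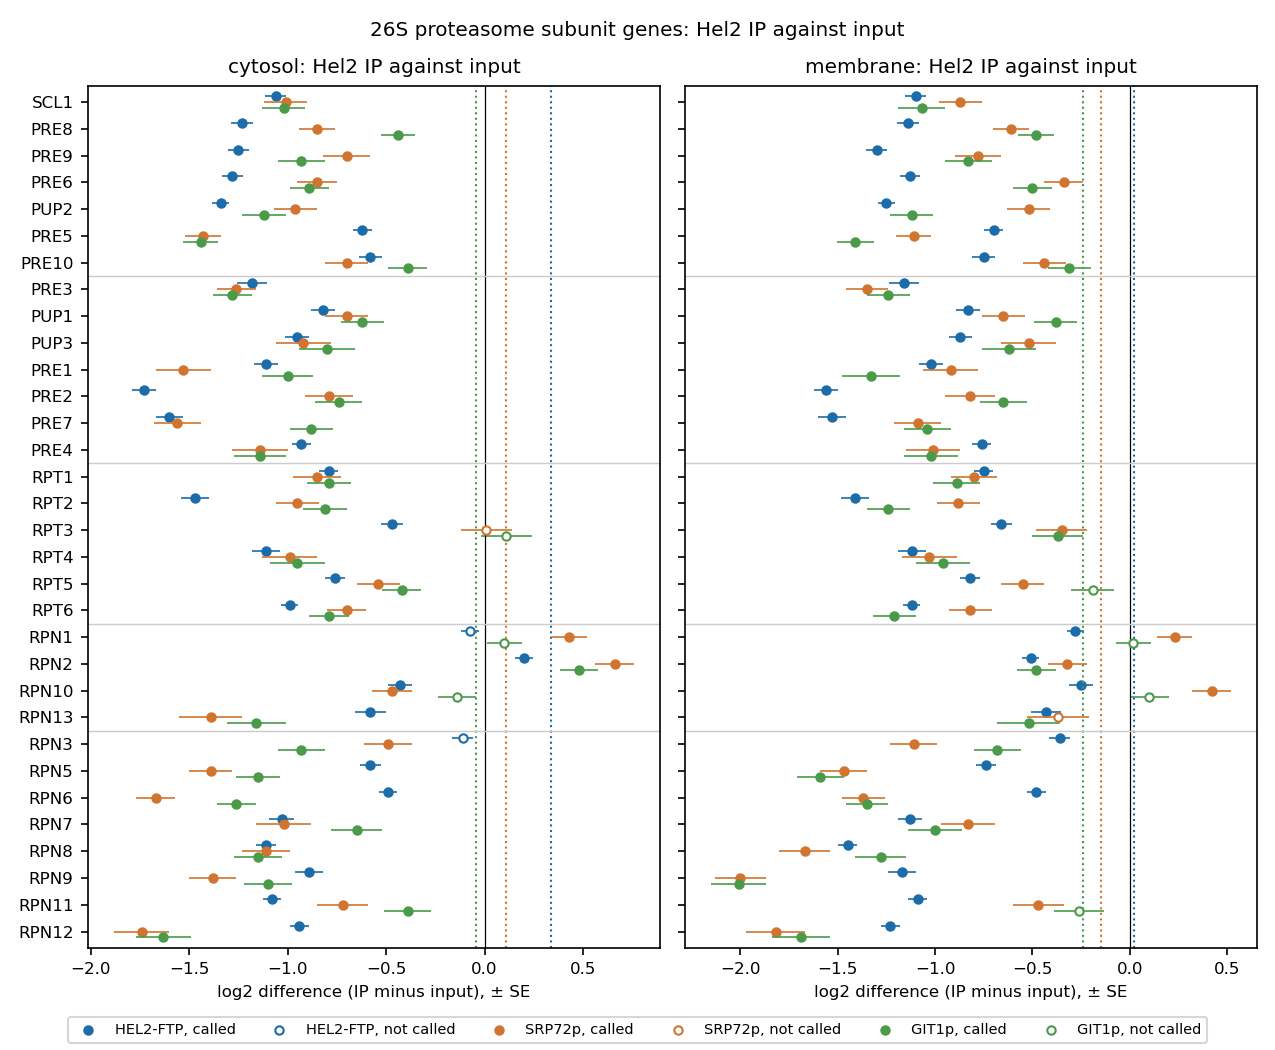
Log2 difference of Hel2 IP minus input for each of the 32 genes, cytosol on the left and membrane on the right, with bars for the standard error; filled points passed an adjusted p of 0.05, open points did not, and dotted lines mark the median of all genes tested in each strain. Filled points above 0 belong to RPN2, RPN1 and RPN10, and RPT3 has open points just above 0 in cytosol labelled SRP72p and GIT1p.

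The libraries labelled SRP72p and GIT1p showed lower IP levels for most of the same list. In cytosol labelled SRP72p 29 genes fell, 2 rose (RPN2 and RPN1) and 1 did not pass the test, with 68.7% of all 5714 genes tested called and 31.0% called lower. In cytosol labelled GIT1p 28 fell and 1 rose (RPN2), with 69.5% of all genes called and 33.2% called lower (47.1% lower when scaled by library size alone). The medians of the 32 genes were -0.94 and -0.88, which is 1.05 and 0.84 below the medians of all genes. At the membrane 29 fell and 2 rose (RPN10 and RPN1) under the label SRP72p, with 60.1% of all genes called and 33.0% called lower, and 28 fell and none rose under the label GIT1p, with 62.4% called and 37.2% called lower (56.0% lower by library size alone). Those medians were -0.82 and -0.92, 0.67 and 0.69 below the medians of all genes. DESeq2 size factors gave 24 lower and 2 higher members at the membrane under the label GIT1p (26.1% of all genes lower), and DESeq2 itself 22 and 2, so that no member rose there depends on the scaling. Without membrane input replicate 1 labelled SRP72p, 29 members fell and 1 rose at the membrane, and without replicate 2, 26 fell and 2 rose. Without replicate 1 or 2 of these inputs, the distance from the median of all genes was 0.85 or 0.54 below.

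Over the 6 IP/input comparisons, 24 of the 32 genes were called lower in all 6, and 3 genes (RPN1, RPN2 and RPN10) were called higher in at least 1. The comparisons within a strain share no library across fractions. Counts over all 6 include the membrane comparison labelled SRP72p and were not repeated without its inputs. Those 24 are 75.0% of the members, and 17.9% of the 5513 genes tested in all 6 were lower in all 6. Of the 192 tests of members, 175 (91.1%) were called lower and 6 higher, where 35.5% of all 33920 tests were called lower and 37.4% higher.

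The lid genes had the lowest median IP/input of the 5 subunit groups in the count libraries, and all 8 fell in 3 of the 4 comparisons. At the membrane under the label GIT1p 7 fell, and RPN11 was at -0.26 (adjusted p = 0.0876). RPN12, the last subunit to join the lid, was at 153 and 169 CPM in cytosolic input labelled SRP72p and 48.5 and 44.7 CPM in IP (log2 difference -1.74, SE 0.14, adjusted p = 6.87e-08). Under the label GIT1p it was at 156 and 155 CPM in cytosolic input and 39.6 and 38.5 CPM in IP (log2 difference -1.63). The IP values lay below the input values with no overlap under both labels. RPN9, a lid scaffold subunit, was at 167.2 and 182.8 CPM in membrane input labelled SRP72p and 39.8 and 38.7 CPM in IP (log2 difference -2.00, SE 0.13, adjusted p = 1.89e-08), or -2.05 and -1.95 without membrane input replicate 1 and 2. Under the label GIT1p its membrane values were 164 and 148 CPM in input and 32.7 and 24.5 CPM in IP (log2 difference -2.01, SE 0.14). Within HEL2-FTP membrane the same gene fell by 1.17 on the log2 scale, from 145 and 137 RPM to 60.7 and 63.7 RPM. The median log2 difference of the 8 lid genes was -1.42 and -1.32 at the membrane for the labels SRP72p and GIT1p, against -1.11 in HEL2-FTP, which was fitted separately, so this difference was not tested.

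Further members with the largest falls in the count libraries were RPN6 and PRE7 in cytosol labelled SRP72p, with log2 differences of -1.67 and -1.56. PRE5 and PRE3, an alpha subunit and the caspase-like beta subunit, fell by 1.44 and 1.28 in cytosol labelled GIT1p. In membrane libraries RPN8 fell by 1.67 under the label SRP72p, and RPN12 fell by 1.82 and 1.69 under the labels SRP72p and GIT1p. Without membrane input replicate 1 and 2 labelled SRP72p, RPN8 was at -1.80 and -1.55 there and RPN12 at -1.92 and -1.73, all of them called. RPN5, a lid scaffold, fell by 1.59 at the membrane under the label GIT1p.

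RPT3 stood apart from the other ATPase genes in the count libraries. In cytosol it was at 159 and 212 CPM in input and 170 and 190 CPM in IP under the label SRP72p, and the groups overlapped (log2 difference 0.0094, SE 0.13, adjusted p = 0.953). Under the label GIT1p the values were 179 and 202 CPM in input and 163 and 157 CPM in IP (log2 difference 0.11 after TMM scaling, SE 0.13, adjusted p = 0.435), although the IP values in CPM were the lower ones. At the membrane its log2 differences were -0.35 (SE 0.13, adjusted p = 0.0342) and -0.37 (SE 0.13, adjusted p = 0.0261), and both calls were lost with DESeq2 size factors, with values of -0.23 and -0.14. They were also lost without membrane input replicate 2 or either membrane IP labelled SRP72p (-0.25, -0.30 and -0.40), and without any one of the 4 membrane libraries labelled GIT1p (-0.42 to -0.34). The other ATPase genes fell in all 4 comparisons, from -0.42 for RPT5 to -1.24 for RPT2, apart from RPT5 at the membrane under the label GIT1p (log2 difference -0.19, adjusted p = 0.139).

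RPN1 and RPN2, the largest subunits and the scaffolds of the base, did not follow the other members. RPN2 was at 304 and 303 RPM in HEL2-FTP cytosolic input and 353 and 344 RPM in cytosolic IP (log2 difference 0.20, SE 0.045, adjusted p = 0.0012), a rise that turned to -0.26 when libraries were centred on their median gene. Its cytosolic values labelled SRP72p were 321 and 350 CPM in input and 527 and 495 CPM in IP (log2 difference 0.66, SE 0.099, adjusted p = 3.51e-05). With the label GIT1p they were 305 and 319 CPM in input and 375 and 307 CPM in IP, which overlap, and the log2 difference was 0.48 (SE 0.098, adjusted p = 0.000489), or 0.13 and not called with library size alone. At the membrane RPN2 fell in all 3 strains. It went from 374 and 355 RPM to 257 and 254 RPM in HEL2-FTP (log2 difference -0.51, SE 0.045, adjusted p = 3.18e-07). In membrane libraries labelled SRP72p it went from 336 and 363 CPM to 253 and 248 CPM (log2 difference -0.32), and with the label GIT1p from 354 and 352 CPM to 196 and 177 CPM (log2 difference -0.48). RPN1 showed log2 differences of -0.073 and -0.28 in HEL2-FTP cytosol and membrane, of which the second was called, and 0.43 and 0.23 under the label SRP72p, both called. Under the label GIT1p neither RPN1 nor RPN10 was called in either fraction with the scaling used here, and RPN10 was at 0.10 at the membrane. The membrane call of RPN1 under the label SRP72p was lost with library size alone, at 0.074, and without membrane input replicate 1 or either membrane IP (0.14, 0.28 and 0.17). RPN10 fell by 0.47 in cytosol labelled SRP72p but rose by 0.42 (SE 0.10, adjusted p = 0.00264) at the membrane, from 84.7 and 91.1 CPM in input to 103 and 108 CPM in IP. That rise was 0.38 and 0.45 without membrane input replicate 1 and 2, both called.

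Between the fractions of HEL2-FTP the IP/input ratio passed a test of the difference for few subunit genes. In that test of the difference between fractions, 5 of the 32 genes were called, all 5 with the lower ratio at the membrane, where 29.2% of all genes were called and 25.9% were called lower. They were RPN2, with a log2 difference of -0.71 (SE 0.063, adjusted p = 3.96e-06), RPN8 at -0.34, RPN12 at -0.30, RPN3 at -0.25 and RPN1 at -0.21, and all are regulatory subunits. None of the 14 core genes or 6 ATPase genes passed this test, in which the ATPase values lay between -0.19 for RPT3 and 0.059 for RPT2. With libraries centred on their median gene 12 members were called, 11 of them higher and 1 lower, and 17.2% of all genes were called lower and 15.4% higher, so the direction of the other small differences depends on the scaling. With that scaling RPN2 was the only one of the 5 still called lower, and RPN8 and RPN12 were at -0.17 and -0.13, neither of them called. Leaving out cytosolic IP replicate 1, membrane input replicate 1 or membrane IP replicate 1 left 3 genes called each time.

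Between the labels GIT1p and SRP72p the IP/input ratio differed for 1 member in the cytosol, PRE7 (log2 difference 0.69, SE 0.16, adjusted p = 0.0134), with 11.1% of all genes called and 8.37% called higher. PRE7 was at 173 and 201 CPM in input and 62.8 and 59.2 CPM in IP under the label SRP72p, and at 170 and 169 CPM in input and 74.3 and 69.5 CPM in IP under the label GIT1p. Its call was lost with library size alone (0.38), without a filter on low counts (0.47), without cytosolic IP replicate 2 labelled SRP72p (0.63) and without cytosolic input replicate 1 or 2 labelled GIT1p (0.69 and 0.67). With library size alone 4 other members were called, all lower under the label GIT1p, and 13.1% of all genes were called lower and 3.78% higher. Without cytosolic input replicate 1 labelled SRP72p, 3 members were called higher. At the membrane none of the 32 passed edgeR's quasi-likelihood test, 7 had an unadjusted p under 0.05, and 2.45% of all genes were called. DESeq2 also called none. Library size alone called 7 lower, where 11.1% of all genes were called lower and the median of all genes was -0.35. Without membrane input replicate 2 labelled SRP72p the median of the 32 was -0.17, against -0.07 over all genes.

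IP/input rose with coding length across genes. The Spearman correlation between coding length and log2 IP/input, a description across genes that share libraries, was 0.65 over the 5532 genes of HEL2-FTP cytosol and 0.60 at the membrane. It ran from 0.47 to 0.54 over the 5714 genes of the count libraries. Within the 32 genes it was 0.43 and 0.28 in HEL2-FTP cytosol and membrane, 0.42 and -0.022 in cytosol and membrane labelled SRP72p, and 0.36 and 0.11 with the label GIT1p. Core genes have a median of 253 codons and regulatory genes 431.5, from 156 codons for RPN13 to 993 for RPN1. The part of coding length in the IP/input values of the subunit genes was not tested.

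In the inputs, subunit footprints were slightly lower at the membrane than in the cytosol. In HEL2-FTP 21 of the 32 genes were lower in membrane input and 1 was higher, with 54.2% of all genes called and 33.0% called lower (74.9% lower after centring on library medians). The median of the 32 genes was -0.18 on the log2 scale, only 0.050 below that of all genes, so the shift of the subunit genes was close to that of a typical gene. RPN12 fell most, from 169 and 163 RPM in cytosolic input to 127 and 126 RPM in membrane input (log2 difference -0.39, SE 0.049, adjusted p = 3.61e-05). It was followed by RPN13 at -0.32 and RPN9 at -0.31. RPN2 was higher at the membrane (log2 difference 0.26, SE 0.045, adjusted p = 0.000473), with no overlap of the groups given above, but was at -0.016 after centring on library medians. Of the ATPase genes RPT1, RPT3 and RPT6 fell, by 0.25, 0.14 and 0.18, and RPT2, RPT4 and RPT5 were at -0.12, -0.17 and -0.11 without passing the test. The call of RPT3 was lost without any one of the 4 inputs, and without membrane input replicate 1 the count of members called was 14.

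**Figure D4:**
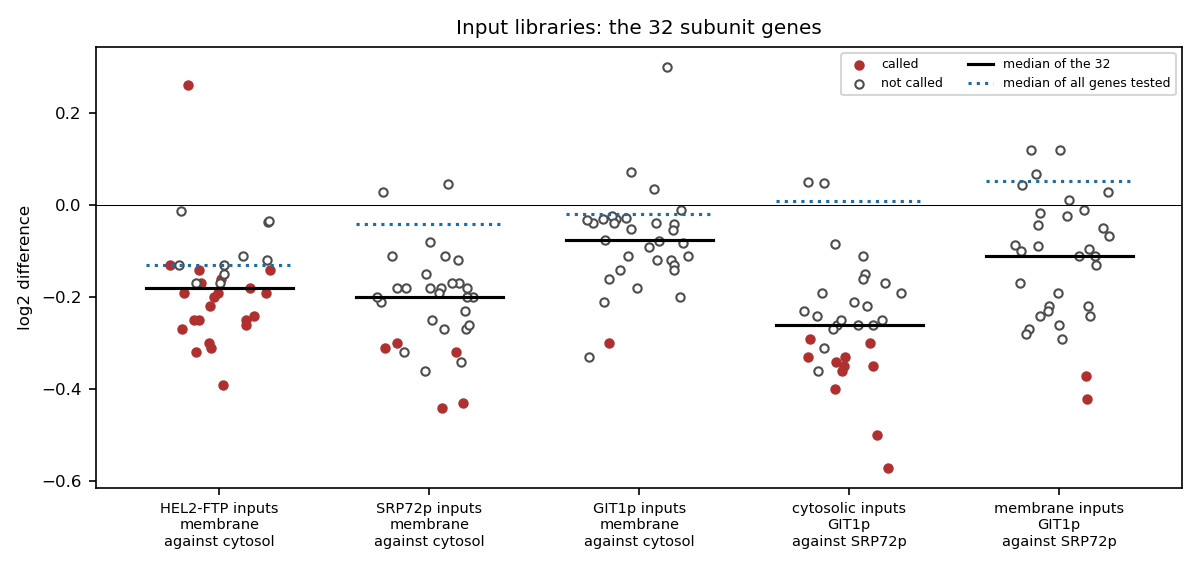
Log2 differences of the 32 genes between input libraries, one column for each of 5 comparisons; filled red points passed an adjusted p of 0.05, the black bar is the median of the 32 and the blue dotted bar the median of all genes tested. Points within a column are spread sideways only for legibility. The medians of the 32 genes lie between -0.26 and -0.076, and RPN2 is the point at 0.26 in the first column and at 0.30 in the third.

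In the count libraries the same fraction comparison called fewer members. Under the label SRP72p 5 of the 32 were lower in membrane input and none higher, with 20.8% of all genes called and 4.92% called lower (21.1% lower with DESeq2 size factors). They included PRE7, from 173 and 201 CPM to 128 and 150 CPM (log2 difference -0.44, SE 0.11, adjusted p = 0.00808), RPN10 at -0.43 and the alpha subunit gene PUP2 at -0.32. None of the 6 ATPase genes was called, with values between -0.23 for RPT6 and -0.15 for RPT4. The count moved with single libraries, as it was 1 without membrane input replicate 1, 13 without membrane input replicate 2, and 26 and 28 without cytosolic input replicate 1 and 2. All genes moved too, as their median was -0.29 and -0.28 without cytosolic input replicate 1 and 2, where that of the 32 was -0.46 and -0.49. Without membrane input replicate 1 and 2 the median of all genes was -0.067 and -0.031, and that of the 32 was -0.10 and -0.32. With DESeq2 size factors 25 members were called lower, at a median of -0.36. Scaling shifts all genes alike, so the distance from the median of all genes, -0.16, could not change with it. Under the label GIT1p 1 member was lower and none higher, with 16.7% of all genes called and 0.210% called lower (4.64% with DESeq2 size factors). It was PRE3, from 152 and 145 CPM in cytosolic input to 115 and 107 CPM at the membrane (log2 difference -0.30, SE 0.095, adjusted p = 0.0443), and this call was lost without any one of the 4 inputs. RPN2 had a value of 0.30 there (SE 0.097, adjusted p = 0.0502), and the ATPase genes lay between -0.14 for RPT5 and 0.035 for RPT2.

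Between labels, 11 of the 32 genes were lower in the cytosolic inputs labelled GIT1p than in those labelled SRP72p and none was higher, with 25.8% of all genes called and 12.4% called lower. PRE1, a non-catalytic beta subunit, was at 137 and 166 CPM under the label SRP72p and 121 and 113 CPM under the label GIT1p (log2 difference -0.57, SE 0.13, adjusted p = 0.00466). RPN10 was at 109 and 126 CPM against 94.3 and 95.1 CPM (log2 difference -0.50, SE 0.097, adjusted p = 0.00161). The groups did not overlap for either gene. The alpha subunit gene PRE10 was at -0.40, and RPT1 alone among ATPase genes was called, at -0.34 (SE 0.11, adjusted p = 0.038), a call lost without cytosolic input replicate 2 labelled SRP72p (-0.35) or either cytosolic input labelled GIT1p (-0.25 and -0.42). The remaining ATPase values ran from -0.26 for RPT2 to -0.085 for RPT4. The median of the 32 genes was 0.27 below that of all genes, a distance that scaling cannot change. The count was 25 with DESeq2 size factors (19.4% of all genes lower), 2 with library size alone (6.65% lower) and 4 without a filter on low counts. The count also fell without cytosolic input replicate 1 or 2 labelled GIT1p, where the distance was -0.26 each time.

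In the membrane inputs 2 members were lower under the label GIT1p and none higher, with 18.3% of all genes called and 6.30% called lower. They were PRE3, at 131 and 157 CPM under the label SRP72p and 115 and 107 CPM under the label GIT1p (log2 difference -0.42, SE 0.097, adjusted p = 0.00705), and RPN3, a lid subunit, at -0.37. The ATPase values ran from -0.29 for RPT1 to -0.010 for RPT4, none of them called. The count was 10 with DESeq2 size factors (10.8% of all genes lower) and 1 with library size alone (4.81% lower). It was 5 and 0 without membrane input replicate 1 and 2 labelled SRP72p, and 1 and 0 without membrane input replicate 1 and 2 labelled GIT1p.

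Along the coding sequence, windows of 20 codons were compared between IP and input in HEL2-FTP as log2 shares of the gene's own footprints. Each read is spread over the codons it covers in these files, so positions are resolved to about the length of a footprint. The 32 genes gave 546 windows in each fraction. In the cytosol 47 were called higher and 53 lower in IP, where 28.1% of all 76718 windows were called, 10.8% higher and 17.3% lower. At the membrane the counts were again 47 and 53, where 21.7% of all windows were called, 10.3% higher and 11.4% lower. Both fractions shared 30 of the windows called higher, which is 63.8% of each list, and 37 of those called lower, which is 69.8% of each list. No window was called in opposite directions. Such an overlap was not counted over all 76718 windows, so whether this sharing is particular to the subunit genes was not tested. RPN2 held the most called windows, 16 in the cytosol and 23 at the membrane of its 45. The number of calls fell without any one library, to between 34 and 75 in the cytosol (34 without IP replicate 2 and 54 without IP replicate 1) and to between 22 and 40 at the membrane (40 and 39 without input replicate 1 and 2, 22 and 38 without IP replicate 1 and 2).

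The ATPase genes gave 124 of these windows in each fraction, of which 12 rose and 7 fell in the cytosol and 8 rose and 7 fell at the membrane. Called windows were thus 15.3% of the 124 in the cytosol and 12.1% at the membrane, less than the 28.1% and 21.7% of all windows. Over all windows 10.8% and 10.3% were called higher and 17.3% and 11.4% lower, in cytosol and membrane. RPT2 lies at chrIV:438047-439360 in the RefSeq annotation of assembly R64 and has 437 codons. Its codons 26 to 45 held 3.90% and 3.73% of the gene's footprints in cytosolic input and 10.1% and 9.50% in IP (log2 difference 1.36, SE 0.15, adjusted p = 0.000524). At the membrane the same window held 5.17% and 5.92% in input and 10.4% and 11.3% in IP (log2 difference 0.97, SE 0.15, adjusted p = 0.00399). IP replicates lay above input replicates with no overlap in both fractions. The call for this RPT2 window held in each of the 7 alternatives run in each fraction on these windows.

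RPT3 (chrIV:1261681-1262967) had its largest rise at codons 6 to 25, where footprints were few. This window held 0.749% and 0.610% of its footprints in cytosolic input and 1.17% and 1.41% in IP (log2 difference 0.90, SE 0.20, adjusted p = 0.00951), and the call was lost without cytosolic IP replicate 2. At the membrane the window held 0.813% and 0.666% in input and 1.96% and 1.83% in IP (log2 difference 1.32, SE 0.20, adjusted p = 0.00342). RPT4 (chrXV:812395-813708) had its largest rise at codons 46 to 65. They held 3.05% and 3.74% of the gene's footprints in cytosolic input and 6.55% and 6.86% in IP (log2 difference 0.99, SE 0.21, adjusted p = 0.00884), and 2.56% and 3.91% in membrane input and 6.63% and 7.18% in membrane IP (log2 difference 1.12, SE 0.21, adjusted p = 0.00774). No IP replicate reached down to an input replicate, and both RPT4 calls were lost without IP replicate 2 of the fraction.

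Of the remaining ATPase genes, each had a smaller largest rise. RPT1 (chrXI:174213-175616) rose at codons 26 to 45 in the cytosol, from 3.92% and 3.32% to 6.28% and 5.48% (log2 difference 0.70, SE 0.17), and had no called window at the membrane. RPT5 (chrXV:545029-546333) rose at codons 26 to 45 in the cytosol, from 3.00% and 2.67% to 4.86% and 4.19% (log2 difference 0.67, SE 0.19), and had no window called higher at the membrane. The difference between fractions was not tested for windows. RPT6 (chrVII:410069-411286) differed in position, as its largest rise lay in the middle of the gene, at codons 186 to 205. That window held 5.35% and 5.64% in cytosolic input and 8.99% and 9.08% in IP (log2 difference 0.72, SE 0.15, adjusted p = 0.00717), and the membrane log2 difference was 0.55 (SE 0.15, adjusted p = 0.0278). Calls were lost for RPT1 without cytosolic input replicate 2 or IP replicate 1, for RPT5 without cytosolic input replicate 2 or either IP, and for RPT6 at the membrane without any one of its 4 libraries.

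Towards the end of the coding sequence the same window, codons 366 to 385, was called lower in RPT2, RPT4 and RPT6 in both fractions. Cytosolic log2 differences there were -0.91, -0.87 and -0.88, and membrane ones -0.52, -0.74 and -0.75. In RPT6 it held 8.07% and 7.17% of the footprints in cytosolic input and 4.10% and 4.02% in IP. This window was chosen after its values were seen.

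RPN2, also chosen after its values were seen, showed rises in the earlier part of the gene and falls in the later part. Its codons 46 to 65 held 3.07% and 2.75% of footprints in cytosolic input and 6.00% and 6.51% in IP (log2 difference 1.10, SE 0.20, adjusted p = 0.00383), and codons 66 to 85 went from 1.25% and 1.15% to 2.70% and 2.76% (log2 difference 1.16, SE 0.19). Codons 886 to 905 held 2.41% and 2.06% in cytosolic input and 0.907% and 0.780% in IP (log2 difference -1.38, SE 0.18, adjusted p = 0.00106). The 6 windows called higher in the cytosol lay between codons 26 and 405, and the 10 called lower lay between codons 426 and 925. At the membrane the 9 called higher lay between codons 6 and 285 and the 14 called lower between codons 426 and 925. A window here is a share of the gene's own footprints, so a larger share at one end goes with a smaller share elsewhere.

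**Figure D5:**
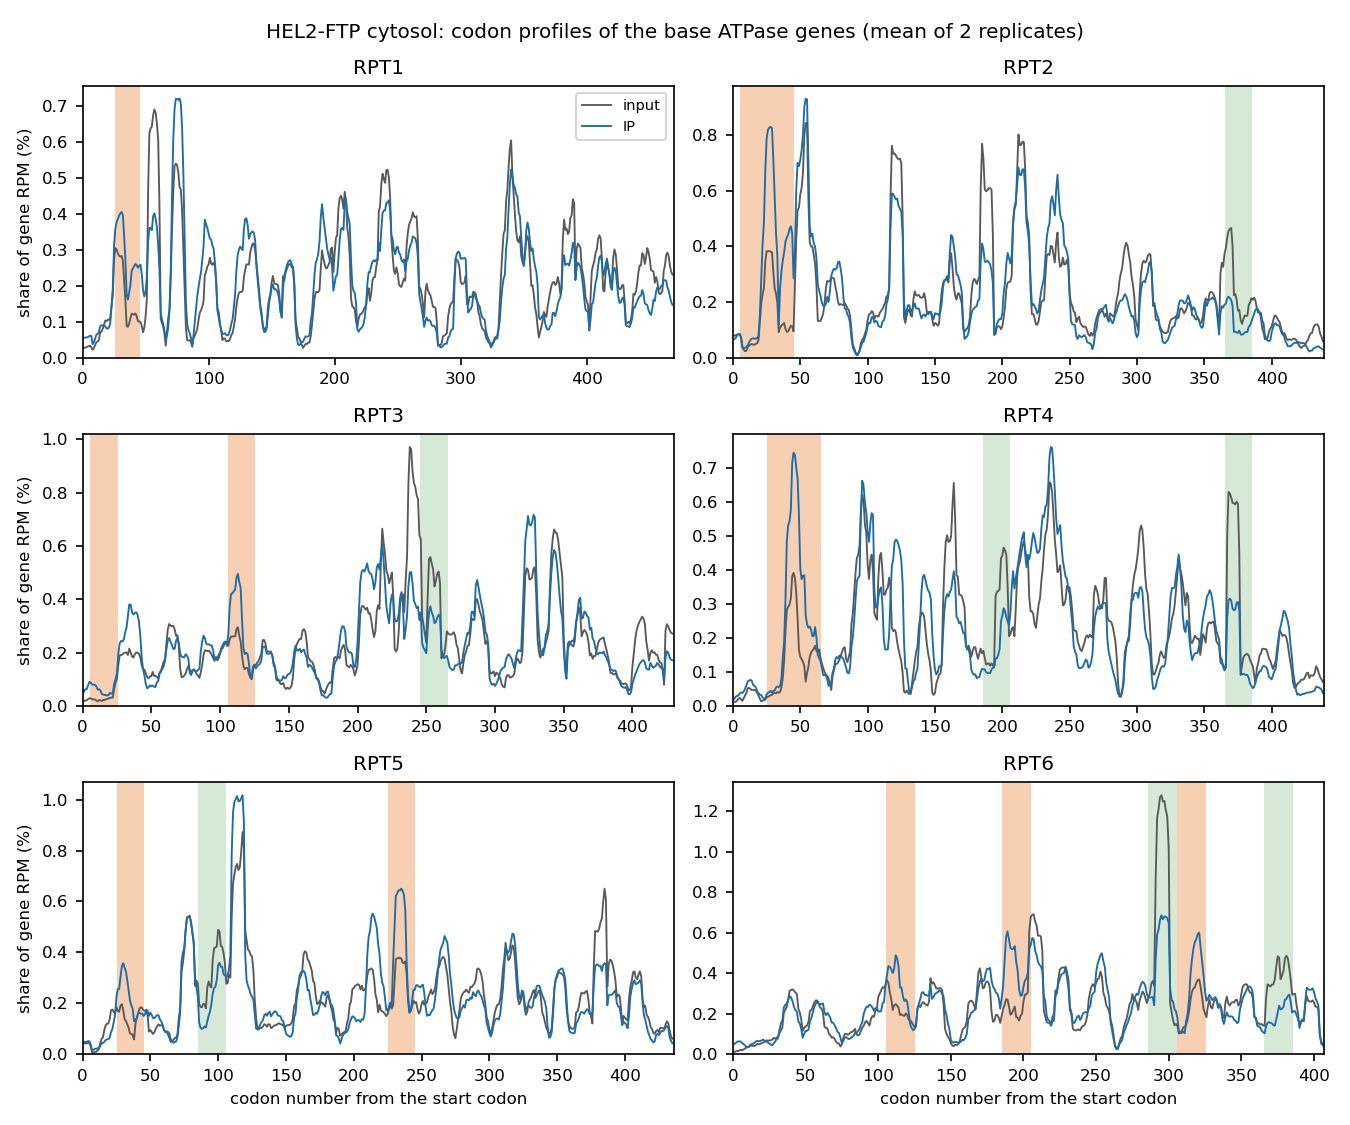
Share of each ATPase gene's coding footprints (%) at each codon in HEL2-FTP cytosolic input (grey) and cytosolic IP (blue), as the mean of 2 replicates, against codon number from the start codon. Orange bands are windows called higher in IP and green bands windows called lower; the bands at codons 26 to 45 of RPT2 and 46 to 65 of RPT4 show the IP line well above the input line.

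Across codons, a description over positions that share reads, the Pearson correlation between IP and input of the same replicate was 0.72 to 0.84 over the 6 ATPase genes and both fractions. Between replicates it was 0.87 to 0.96 for input and 0.86 to 0.96 for IP. RPT5 kept its highest codon between positions 114 and 118 in all 8 libraries, at 3.25 to 4.68 times the gene's mean per codon. The highest codon of RPT6 lay between 294 and 298 in 7 of the libraries, at 3.85 to 5.50 times the mean in the inputs, and at codon 321 in cytosolic IP replicate 2.

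At the start of the coding sequence, codons 6 to 60, a minority of the subunit genes had a changed share in the IPs. In the cytosol 7 of the 32 genes had a higher share there in IP and 3 a lower one, with 41.5% of the 4735 genes tested called and 36.0% called higher. At the membrane 9 were higher and 1 lower, with 44.3% called and 40.1% called higher. The median log2 difference of the 32 genes was 0.058 in the cytosol and 0.17 at the membrane, against 0.32 and 0.38 over all genes. The 14 core genes had medians of -0.21 and -0.17 and the 18 regulatory genes 0.29 and 0.36. Without a cytosolic library the counts called were 6 without input replicate 1, 5 without IP replicate 1 and 6 without IP replicate 2, and at the membrane 5 without either IP.

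RPT4 and RPN2 showed the largest gains at the start. RPT4 had 6.23% and 5.88% of its footprints at codons 6 to 60 in cytosolic input and 11.5% and 11.7% in IP (log2 difference 1.03, SE 0.15, adjusted p = 0.00125), with 12.9% of its codons in that stretch. RPN2 had 4.24% and 4.06% in cytosolic input and 7.88% and 7.36% in IP (log2 difference 0.92, SE 0.15), and 3.30% and 2.78% against 7.14% and 7.38% at the membrane (log2 difference 1.32, SE 0.15, adjusted p = 0.000395). Both cytosolic calls were lost when the first part ended at codon 30, with values of 0.63 and 0.47. RPT2 rose by 0.87 in the cytosol and 0.86 at the membrane, and RPN5 by 0.86 at the membrane. RPT3 was at 0.45 in the cytosol, not called, and rose by 0.69 at the membrane, a call lost without membrane input replicate 2 or either membrane IP. For RPT1, RPT5 and RPT6 the cytosolic values of 0.090, 0.38 and -0.11 and the membrane values of 0.087, 0.41 and -0.090 were not called. PRE3 fell by 0.46 in the cytosol and by 0.47 at the membrane, and PRE5 and RPN10 fell by 0.50 and 0.49 in the cytosol, with membrane values of -0.38 and -0.25 that were not called. Each of these calls was lost without at least 3 of the 4 libraries of its comparison, left out one at a time. Over the 32 genes the Spearman correlation of this value with coding length was 0.64 in the cytosol and 0.65 at the membrane, and over the 4735 genes it was 0.60 and 0.61; the part of length was not tested.

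RPN4, the transcription factor of the subunit genes, did not fall with them in the IPs of HEL2-FTP. It was at 140 and 122 RPM in cytosolic input and 200 and 174 RPM in IP (log2 difference 0.51, SE 0.073, adjusted p = 2.83e-05), and at 111 and 112 RPM in membrane input and 150 and 146 RPM in IP (log2 difference 0.41, SE 0.073, adjusted p = 0.000211). IP and input did not overlap, but both calls were lost after centring on library medians, at 0.060 and 0.12. In the count libraries it rose in cytosol labelled SRP72p (log2 difference 0.50, SE 0.11, adjusted p = 0.000748) and was at 0.25 (adjusted p = 0.0415) in cytosol labelled GIT1p, which turned to -0.11 with library size alone and was lost without any one of its 4 libraries (0.18 to 0.31). The first of these calls was lost without cytosolic input replicate 2 labelled SRP72p, at 0.27. At the membrane RPN4 was at 0.15 (adjusted p = 0.25) and -0.32 (adjusted p = 0.0199) under the labels SRP72p and GIT1p, the second of these lost with DESeq2 size factors (-0.095) and without either input (-0.33 and -0.31) or IP replicate 1 (-0.24). Between labels its inputs did not pass the test, with log2 differences of 0.11 in the cytosol and 0.22 at the membrane.

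Of the 24 accessory genes, which cover assembly chaperones, associated factors, shuttles and ubiquitin enzymes, 16 fell and 6 rose in the HEL2-FTP cytosolic IP, and 16 fell and 4 rose at the membrane. Of all genes 53.6% were called higher in that cytosolic comparison and 45.4% at the membrane, with the shares called lower given above. Under the label SRP72p 15 fell in each fraction, while 5 rose in the cytosol and 2 at the membrane. With the label GIT1p 12 fell and 3 rose in the cytosol, and 14 fell and 4 rose at the membrane. Over all genes the shares called higher were 37.7% and 27.1% in cytosol and membrane labelled SRP72p, and 36.3% and 25.2% with the label GIT1p, and the shares called lower were 31.0%, 33.0%, 33.2% and 37.2% in the same order. BLM10, an alternative activator that caps the core, had the largest rise of the 24 in all 6 comparisons. It was at 53.7 and 52.4 RPM in HEL2-FTP cytosolic input and 216 and 215 RPM in IP (log2 difference 2.01, SE 0.051, adjusted p = 3.33e-12), and its other 5 log2 differences ran from 1.76 to 2.34. ECM29, which tethers core to regulatory particle, went from 81.5 and 79.6 RPM to 272 and 283 RPM (log2 difference 1.78, SE 0.046, adjusted p = 3.95e-12), and was between 0.88 and 0.94 in the count libraries. Both also gained at their start, with log2 differences for codons 6 to 60 of 2.26 for BLM10 and 2.30 for ECM29 in the cytosol. IP/input and the value for codons 6 to 60 both rose with coding length across genes, as given above. The part of length in the rises of BLM10 and ECM29 was not tested.

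SEM1, the remaining lid subunit, fell in all 6 comparisons, from 46.3 and 33.8 RPM to 16.5 and 11.3 RPM in HEL2-FTP cytosol (SE of the log2 difference 0.16, adjusted p = 2.45e-06), with log2 differences over the 6 between -2.24 and -1.12. UMP1, the chaperone of core assembly, had log2 differences of -0.29 and -0.40 in HEL2-FTP, -1.10 and -0.77 under the label SRP72p, and -0.21 and -0.43 under the label GIT1p, of which that of GIT1p cytosol (adjusted p = 0.0813) did not pass. In the cytosol the difference of UMP1 between labels was 0.88 (SE 0.15, adjusted p = 0.00223). POC4, a chaperone of the alpha ring, was called lower in all 6 comparisons but had few counts, at 4.64 to 10.6 CPM in inputs and 0.351 to 2.62 CPM in IPs labelled SRP72p and GIT1p, where 3 counts are worth 0.635 to 1.49 CPM in the IPs, so no fold is given there. In HEL2-FTP it fell by 1.01 in cytosol and 0.97 at the membrane. UBI4, the polyubiquitin gene, fell by 1.68 and 1.77 in HEL2-FTP, but its repeats and the other ubiquitin genes are near-identical in sequence, so its values are uncertain. The ubiquitin shuttle gene DDI1 fell by 1.46 in HEL2-FTP membrane IP. In the inputs SEM1 was lower under the label GIT1p than under SRP72p, with log2 differences of -0.60 in the cytosol and -0.82 at the membrane (adjusted p = 0.0157 and 0.00366).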

How the data were processed

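Footprints were made with RNase I and RNA was extracted with TRIzol, per the labels' protocols. CASAVA 1.8, UMI-tools, Bowtie2, TopHat and the build sacCer3 are named in the submitters' processing notes, without role or order. For HEL2-FTP the authors deposited RPM at each codon, and for the labels SRP72p and GIT1p whole-number counts per gene. RPM was summed over each coding sequence; 70.9% to 76.8% of low sums came out as whole reads, too few for a count test. Depth was estimated from them at 22.15 to 38.86 times 1000000 reads per HEL2-FTP library; counts summed to 2015928 to 13093023 per library, where 3 counts are worth 0.229 to 1.49 CPM.

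Log2(RPM + 0.5) was tested with limma 3.58.1 with a variance trend, where genes averaged 1 RPM or more; this scale understates fold changes of low genes. Counts went into edgeR 4.0.16's quasi-likelihood test (TMM, default filter) in R 4.3.3. Each fit held all 8 or 16 libraries, without a replicate term. Windows of 20 codons from codon 6 to 5 codons before the end used log2(window RPM + 0.1) minus log2(gene RPM + 0.1), for windows averaging 1 RPM or more. Codons 6 to 60 against the rest were tested likewise. The fits were tested on simulated data. All 32 members passed the filters. Alternatives were another pseudocount, filter, scaling, window, DESeq2 1.42.0, a replicate block and leaving out each library.

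Named were the ATPase genes, RPN4, UMP1 and SEM1 throughout, the 3 largest called rises and falls of members, the 2 largest of accessory genes, and each ATPase gene's largest called window rise. RPN1, RPN2, RPN10 and a few others given elsewhere were chosen after their values were seen. The members and lists were chosen with earlier results of these data known. Symbols and coordinates came from the RefSeq table of assembly R64, in which all members matched.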

Additional observations from a re-analysis of the deposited data

Results flagged for a closer look

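A test of the difference in IP/input between fractions or labels picked out the following results. In HEL2-FTP the IP/input ratio was lower at the membrane than in the cytosol for RPN2 (log2 difference -0.71), RPN8 (-0.34), RPN12 (-0.30), RPN3 (-0.25) and RPN1 (-0.21), and for the ubiquitin ligase gene HUL5 (-0.25), while it was higher at the membrane for the base chaperone gene NAS6 (0.29). With libraries centred on their median gene, RPN2 was the only one of these members still called lower, and 11 members were called higher. For RPN2 the ratio was above input in the cytosol and below it at the membrane, with the scaling used here. Its cytosolic direction turned with that centring (-0.26). In the cytosol the ratio was higher under the label GIT1p than under SRP72p for PRE7 (0.69), UMP1 (0.88) and UBI4 (0.75), and lower for the base chaperone gene HSM3 (-1.19), whose cytosolic inputs were 37.6 and 41.8 CPM under the label GIT1p and 21.6 and 17.8 CPM under SRP72p. At the membrane UBI4 was higher under the label GIT1p (0.83). Values of UBI4 are uncertain because of its near-identical repeats, as stated above. Groups of 2 replicates were too small for a test of single libraries standing apart.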

How the results depend on the processing

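The IP/input calls moved least. A change of scaling is no test of the distance between medians, since it shifts all genes of a library alike. Over the alternatives, and without each library in turn, the members called lower stayed between 22 and 32 in all 6 IP/input comparisons, and the distance of their median from that of all genes kept its sign. Of the values of single named genes, 1920 kept direction and side of the threshold, 152 lost a call, 61 gained one and 4 turned. Those that turned were RPN2 with libraries centred on their median gene (-0.016 between HEL2-FTP inputs and -0.26 in HEL2-FTP cytosol IP), RPN4 in cytosol IP labelled GIT1p with library size alone (-0.11) and SEM1 for the first codons in the cytosol when these ended at codon 30 (-0.0039). Counts of members called moved by over 1.5 times in some alternatives for the comparisons that follow, which are listed together with some counts that did not. Between HEL2-FTP fractions of IP/input it was 12 with library medians. With DESeq2 size factors, and in brackets with DESeq2 itself, the fraction comparison of inputs labelled SRP72p had 25 (25) and that of GIT1p 5 (5), the comparison of labels had 25 (24) in cytosolic and 10 (10) in membrane inputs, and IP/input between labels in the cytosol had 2 (1). With library size alone these 5 counts were 3, 4, 2, 1 and 4, and IP/input between labels at the membrane had 7. Without a filter on low counts they were 3, 3, 4 and 2 for the first 4, the last of these unchanged. They were 2 for the fifth, and 1 for IP/input between labels at the membrane. Windows of 10 codons gave 216 calls in the cytosol and 187 at the membrane. They are a larger set (95079 windows over all genes, against 76718), so these counts do not compare directly. A window pseudocount of 0.5 gave 152 in the cytosol and 134 at the membrane, the second a move of under 1.5 times. Without each library in turn, the count ranged from 14 to 19 between HEL2-FTP inputs and 3 to 6 for HEL2-FTP IP/input between fractions. It ranged from 1 to 28 between inputs labelled SRP72p and was 0 in all 4 cases for GIT1p. Between labels it ranged from 1 to 12 in cytosolic inputs, 0 to 5 in membrane inputs, and 0 to 3 and 0 to 2 for IP/input in cytosol and membrane. It ranged from 34 to 75 and from 22 to 40 for windows in cytosol and membrane, and from 5 to 7 for the first codons in each. The distance of the members' median from all genes turned for IP/input between labels, with a range of -0.027 to 0.067 in the cytosol and -0.095 to 0.17 at the membrane, where it was also -0.0026 without membrane IP replicate 2 labelled GIT1p. The cause of these changes was not tested. The labels do not say that a replicate number marks a shared culture or day, and with 2 pairs per comparison the numbers do not establish a pairing. In HEL2-FTP the deviations of equal numbers had correlations of 0.421 and 0.278 for IP against input in cytosol and membrane, 0.407 and 0.315 for windows and 0.404 and 0.231 for first codons, which is a hint from the data and not from the design. With a replicate block the count was 8 (1 of them higher) for HEL2-FTP IP/input between fractions, 0 between inputs labelled GIT1p, 28 between HEL2-FTP inputs, 149 and 137 for windows and 14 and 12 for first codons. The membrane inputs labelled SRP72p and GIT1p had a correlation of -0.428 between deviations of equal numbers, and the crossed pairing, chosen after seeing the data, gave 2 calls, as did the replicate block. Depth limits the count libraries most, where 3 counts are worth up to 1.49 CPM.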
